A study of Mus musculus with 16 samples.

Results

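The genes described here are 10 genes of neuronal migration: the Rnd GTPases Rnd1, Rnd2 and Rnd3, the formins Diaph1 and Diaph3, the kinase Cdk5 with its activators Cdk5r1 and Cdk5r2, and the dynein regulators Pafah1b1 and Ndel1. They were taken by symbol from a table of 20841 genes, and all 10 were present and passed the filter on low values. Rnd3 and Diaph3 were chosen by their measured levels, which differed between genotypes at birth, and Cdk5r2 was chosen by its level at 1 week, which also differed; for these differences the values are given as a description, without a test. The other 7 genes joined the set as relatives and partners of those 3. The set was drawn up with results of both ages in view, so the P7 tests of Rnd3 and Diaph3 rest on libraries separate from the P0 ones, but whether P7 values also entered the choice is not known.

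The study measured polyadenylated RNA by sequencing in the right cortex of mice at postnatal day 0 (P0) and postnatal day 7 (P7). Conditional knockout (cKO) mice carried a deletion of Foxp1, a forkhead transcription factor, restricted to the forebrain, and were compared with control mice of the same age. Each of the 4 groups, control and cKO at either age, had 4 libraries, numbered as in the labels: 1, 2, 5 and 6 for P0 control, 3, 4, 7 and 8 for P0 cKO, 43, 45, 46 and 47 for P7 control, and 41, 42, 44 and 48 for P7 cKO. The Cre driver, the alleles that the controls carried, the strain and the number of animals behind a library are not stated in the labels, so p-values measure the spread between these libraries, which may be technical.

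Values are in CPM, the reads of a gene scaled to the library's total, and a log2 fold change is the difference of mean log2(CPM + 1), which understates the change of low genes. P0 libraries held 17957490 to 18232943 reads and P7 libraries 9858296 to 15335738, so that a count of 0 allowed up to 0.167 CPM at P0 and up to 0.304 CPM at P7; this covers counting error only. All P0 libraries were read as 50 bases on BGISEQ-500 and all P7 libraries as 75 bases on NextSeq 500, so age and platform cannot be told apart. Foxp1 fell to 49.3% of control at P0, from 326 ± 38.3 to 161 ± 21.3 CPM (SD, n = 4), and to 48.9% at P7, from 444 ± 73.3 to 217 ± 38.4 CPM; the groups did not overlap at either age (exact two-sided permutation p = 0.0286, the smallest that 4 against 4 libraries allow). Markers of cortical excitatory neurons such as Tbr1 were abundant in every group, with a summed level of 3623 to 4528 CPM over 10 genes in P0 control and 1682 to 1883 CPM in P7 control. Markers of the neighbouring striatum were also present, at 655 to 891 CPM over 13 genes in P0 control, 536 to 638 CPM in P0 cKO, 434 to 835 CPM in P7 control and 500.2 to 764 CPM in P7 cKO. At P0 most of this sum was Meis2, at 523 ± 44.9 CPM in control and 414 ± 19.3 CPM in cKO (SD, n = 4), named here for its share. In bulk tissue, fewer cells of a type and less RNA per cell cannot be told apart.

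New cortical neurons migrate by extending a leading process, pulling the nucleus forward along microtubules and contracting actomyosin behind it. Rnd proteins are atypical small GTPases that stay bound to GTP and counteract RhoA signalling; in the mouse cortex Rnd2 is a target of the proneural factor Neurog2, and Rnd2 and Rnd3 each act at their own step of radial migration. Formins of the diaphanous family elongate unbranched actin filaments, and Diaph3 also serves cell division. Cdk5 is a kinase of postmitotic neurons that is inactive without p35, made from Cdk5r1, or p39, made from Cdk5r2, and mice without Cdk5 have inverted cortical layers. Pafah1b1 encodes Lis1, the product of the main gene of human lissencephaly, which with Ndel1, itself a Cdk5 substrate, regulates the motor dynein in nuclear movement.

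RefSeq promoter sequences (GRCm38.p6, from 250 bases before the start of a gene to 50 bases after it, by the start that RefSeq gives) were at hand for 5 of the 10 genes: Rnd3, Diaph3, Cdk5r2, Pafah1b1 and Ndel1. The promoters of the 3 genes whose levels differed between genotypes are shown, each 5′ to 3′ on the strand of its gene. They lie at chr2:51149062-51149361 (minus strand, Rnd3), chr14:87141175-87141474 (minus strand, Diaph3) and chr1:74854779-74855078 (plus strand, Cdk5r2). Compared with the outermost start that GENCODE annotates, the RefSeq start was the same for Rnd3 and lay inside the gene by 11 bases for Diaph3, 95 for Cdk5r2, 812 for Pafah1b1 and 18723 for Ndel1, so the windows of the last 2 cover an inner start. Capitals mark matches to E-boxes, the letters that proneural factors of the Neurog2 kind bind (CAGATG, read as CATCTG on the other strand, and CAGCTG).
Rnd3: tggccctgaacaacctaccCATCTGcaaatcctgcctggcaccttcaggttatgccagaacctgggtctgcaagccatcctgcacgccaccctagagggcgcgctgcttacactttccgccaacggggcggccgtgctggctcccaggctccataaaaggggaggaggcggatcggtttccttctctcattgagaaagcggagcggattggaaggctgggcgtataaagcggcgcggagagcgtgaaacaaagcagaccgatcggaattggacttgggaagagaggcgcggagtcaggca
Diaph3: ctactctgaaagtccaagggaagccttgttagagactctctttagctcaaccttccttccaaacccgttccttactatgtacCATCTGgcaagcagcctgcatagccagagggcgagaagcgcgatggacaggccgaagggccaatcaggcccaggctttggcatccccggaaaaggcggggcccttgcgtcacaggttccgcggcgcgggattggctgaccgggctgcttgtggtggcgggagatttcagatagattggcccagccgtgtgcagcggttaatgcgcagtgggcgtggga
Cdk5r2: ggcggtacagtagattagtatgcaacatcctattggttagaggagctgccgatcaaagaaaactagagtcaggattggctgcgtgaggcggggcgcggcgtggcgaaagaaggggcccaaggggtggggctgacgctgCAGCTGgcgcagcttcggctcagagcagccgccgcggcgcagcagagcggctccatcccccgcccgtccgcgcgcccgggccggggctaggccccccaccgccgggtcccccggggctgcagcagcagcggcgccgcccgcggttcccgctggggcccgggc

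The forkhead core TGTTTAC, searched on both strands, had 0 matches in these 5 promoters and was found in 3.65% of the 32851 mouse promoters of the same length. The E-box CAGATG, found in 17.15% of all promoters, occurred once each in Rnd3 and Diaph3, on the reverse strand at offsets of -231 and -168 from the RefSeq start. CAGCTG, a palindrome found in 16.3% of all promoters, occurred once in Cdk5r2, at -112. Pafah1b1 and Ndel1 held neither E-box. A match of letters is a description of the window and does not show a bound site.

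Among the Rnd genes at P0, Rnd3 was lower in every cKO library than in every control library. Rnd3 (chromosome 2, 51130438 to 51149111, minus strand, GRCm38) stood at 99.3, 98.2, 99.9 and 99.1 CPM in P0 control libraries 1, 2, 5 and 6. In P0 cKO libraries 3, 4, 7 and 8 it stood at 50.8, 61.6, 77.0 and 57.7 CPM. The controls were nearly equal while the cKO libraries spread widely: the coefficient of variation was 0.683% in control, under the 2.36% expected from counting reads alone, and 17.98% in cKO, above the 2.99% expected from counting. The cKO mean was 62.3% of control (61.8 ± 11.1 against 99.1 ± 0.677 CPM, SD, n = 4), a log2 fold change of -0.69 (SE 0.12, 95% interval -0.94 to -0.44).

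At P7, in separate libraries, Rnd3 had no genotype difference that passed. It measured 50.1, 45.3, 42.6 and 50.7 CPM in P7 control libraries 43, 45, 46 and 47, and 49.9, 53.9, 43.5 and 51.7 CPM in P7 cKO libraries 41, 42, 44 and 48. The groups overlapped, and the log2 fold change was 0.07 (SE 0.08, limma adjusted p = 0.758) with a 95% interval from -0.09 to 0.24. That interval does not reach the P0 value, which chose the gene. The change of the genotype difference from P0 to P7 was 0.76 on the log2 scale (95% interval 0.46 to 1.07), given without a test because its P0 values chose the gene.

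**Figure D1:**
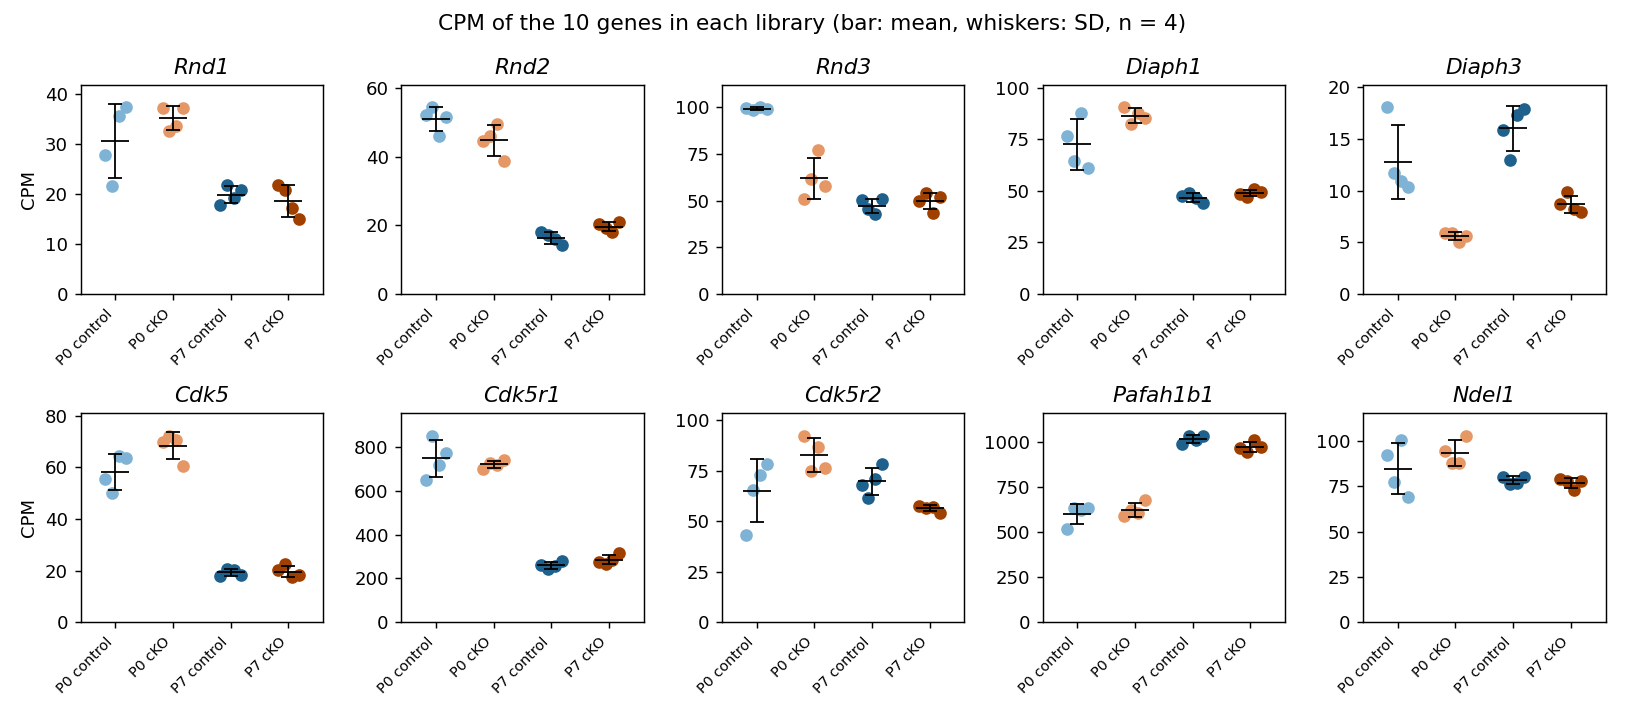
CPM of each of the 10 genes in each of the 16 libraries, by group (points, libraries; horizontal bar, mean; whiskers, SD, n = 4; each panel has its own CPM axis starting at 0). The 4 P0 control points of Rnd3 lie together at 98.2 to 99.9 CPM above all cKO points, and Diaph3 is lower in cKO at both ages with no overlap.

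Rnd2, the other Rnd gene known for radial migration, had no genotype difference that passed at either age (chromosome 11, 101464999 to 101471853, plus strand). It measured 52.2, 54.5, 46.3 and 51.6 CPM in P0 control and 44.5, 46.1, 49.7 and 38.8 CPM in P0 cKO, groups that overlapped (log2 fold change -0.19, SE 0.11, limma adjusted p = 0.352). At P7 the order was the opposite: 18.1, 17.2, 15.96 and 14.25 CPM in control against 20.3, 19.2, 17.98 and 20.9 CPM in cKO. The lowest cKO library lay just under the highest control library, and the log2 fold change of 0.25 (SE 0.09, 95% interval 0.05 to 0.45) did not pass (limma adjusted p = 0.218). Nor did the change of the genotype difference between the ages, 0.44 (95% interval 0.15 to 0.73, adjusted p = 0.148). Rnd2 overlaps Vat1 on the opposite strand over 11.4% of its exon bases, and whether reads were counted by strand is not stated, so part of its reads may belong to Vat1. Vat1 itself had log2 fold changes of 0.27 at P0 (adjusted p = 0.313) and 0.13 at P7 (adjusted p = 0.719).

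Rnd1, a relative of Rnd3 better known for axons and synapses than for migration, did not pass at either age (chromosome 15, 98663421 to 98677461, minus strand). Its P0 control libraries ranged from 21.5 to 37.3 CPM (30.5 ± 7.31, SD, n = 4) and its P0 cKO libraries from 32.6 to 37.2 CPM (35.1 ± 2.42), within the range of control (log2 fold change 0.23, 95% interval -0.11 to 0.57, adjusted p = 0.453; 0.07 without control library 2). At P7 control was at 19.8 ± 1.73 and cKO at 18.6 ± 3.17 CPM (log2 fold change -0.10, adjusted p = 0.787). Relative to Rnd2 within the same library, Rnd3 was at a CPM ratio of 1.95 ± 0.151 in P0 control and 1.38 ± 0.182 in P0 cKO, and at 2.91 ± 0.438 and 2.54 ± 0.177 in the P7 groups.

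Diaph3 was the member with the largest genotype difference, and it was lower in cKO at both ages. The gene, on chromosome 14 from 86655367 to 87141235 (minus strand, 33 exon blocks), measured 18.04, 11.7, 10.9 and 10.4 CPM in P0 control and 5.86, 5.92, 4.98 and 5.64 CPM in P0 cKO. Control library 1 was the highest by a wide margin, and the groups did not overlap. The P0 cKO mean was 43.9% of control (5.601 ± 0.431 against 12.8 ± 3.56 CPM, SD, n = 4), a log2 fold change of -1.03 (SE 0.17, 95% interval -1.40 to -0.66), or -0.86 without control library 1. In the P7 libraries, separate from those of the P0 difference, Diaph3 measured 15.8, 12.98, 17.3 and 17.9 CPM in control and 8.67, 9.825, 8.22 and 7.91 CPM in cKO, again with no overlap. It fell to 54.1% of control at P7 (8.66 ± 0.840 against 16.01 ± 2.21 CPM), a log2 fold change of -0.81 (SE 0.12, 95% interval -1.06 to -0.56, limma adjusted p = 0.000743). The genotype difference changed by 0.22 between the ages (95% interval -0.21 to 0.65), given without a test. Of the 50-base stretches of Diaph3 exons, 3.64% also occur elsewhere among transcripts, so a small part of its reads is uncertain. It was also the lowest member, with 78 to 329 reads per library.

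Since Diaph3 is needed for cell division as well as for actin in neurons, 24 marker genes of dividing cells (among them Mki67, Top2a and Cdk1) were summed in each library. At P0 the sum was 600.1 to 869 CPM in control and 512 to 569 CPM in cKO, with no overlap (exact permutation p = 0.0286, the smallest possible). All 24 markers had a negative log2 fold change at P0 (median -0.33); 0 of 24 passed with limma or edgeR and 7 with DESeq2, while 13 (54.2%, against 18.1% of all genes) reached an unadjusted p below 0.05. At P7 the sums overlapped, at 304 to 367 CPM in control and 299 to 378 CPM in cKO (exact permutation p = 0.571), and the median log2 fold change was 0.03, with 0 of 24 passing with any of these tools and 3 reaching an unadjusted p below 0.05, none of them lower. Per 100 CPM of these markers, Diaph3 stood at 1.80 ± 0.271 in P0 control and 1.03 ± 0.113 in P0 cKO. At P7 it stood at 4.84 ± 0.736 in control and 2.51 ± 0.345 in cKO, with no overlap (exact permutation p = 0.0286). The Diaph3 difference at P7 was therefore measured beside a sum of dividing-cell markers that overlapped between genotypes; the part of the lower marker sum in the P0 difference was not tested.

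**Figure D2:**
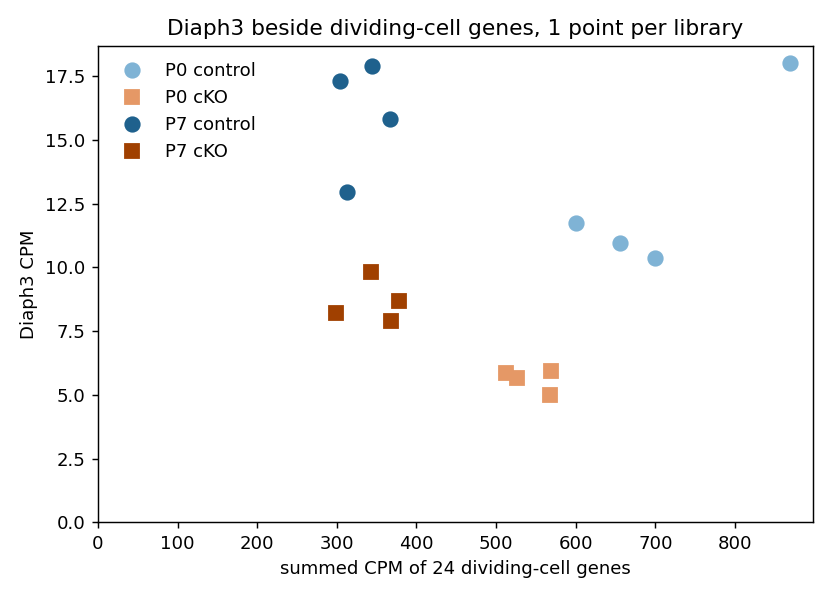
Diaph3 CPM (vertical axis) against the summed CPM of 24 dividing-cell markers (horizontal axis), 1 point per library, coloured by group. At P0 the cKO libraries are lower on both axes, while at P7 the groups separate on the Diaph3 axis and overlap on the marker axis, at 299 to 378 CPM.

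Markers of intermediate progenitors, the basal precursors of cortical neurons, were summed beside Rnd3. Their sum over 8 genes was 255.5 to 460 CPM in P0 control and 298 to 329 CPM in P0 cKO, which lay inside the control range (exact permutation p = 0.686). This sum rests largely on Elavl2, which neurons also express, at 145 ± 62.3 CPM in P0 control and 171 ± 17.8 CPM in P0 cKO. Without Elavl2, a choice made after seeing the data, the sum over 7 genes was 159 to 250 CPM in control. In cKO this sum was 136 to 148 CPM, with no overlap. Elavl2 was the tested marker with a positive log2 fold change (0.34). The sum without it is therefore a description, given without a test. Of the 7 markers that were tested, 6 had a negative log2 fold change, 0 passed with limma or edgeR, 1 passed with DESeq2 (Eomes, lower, a marker named after its value was seen), and 3 had an unadjusted p under 0.05; the median log2 fold change was -0.32. The summed level of 7 astrocyte markers was higher in P0 cKO, at 548 to 693 CPM in control and 782 to 907 CPM in cKO (exact permutation p = 0.0286), most of it from Sparcl1, which rose from 443 to 625 CPM (limma adjusted p = 0.0343). Of the 6 tested, 1 passed with limma, 0 with edgeR and 3 with DESeq2. Without Sparcl1, a choice also made after seeing the data, the sums overlapped, at 154 to 194 CPM in control and 189 to 226 CPM in cKO. These sums are a description, given without a test. Striatal markers were lower in P0 cKO with a median log2 fold change of -0.56, negative in all 13 genes. Their P0 sums did not overlap, at 655 to 891 CPM in control and 536 to 638 CPM in cKO. These sums rest largely on Meis2, at 523 CPM in control and 414 CPM in cKO, and sums without it were not tested. In P7 cKO the striatal markers were higher, with a median of 0.45 and sums that overlapped. With limma or edgeR 0 of 13 passed at either age. With DESeq2 2 passed at P0 and 0 at P7, and 2 at P0 and 4 at P7 had an unadjusted p under 0.05. The part of these cell types in the Rnd3 values was not tested.

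The second diaphanous formin, Diaph1, had no genotype difference that passed at either age. Diaph1, on chromosome 18 from 37843601 to 37935476 (minus strand), measured 76.6, 64.2, 87.9 and 61.3 CPM in P0 control and 90.5, 82.2, 87.8 and 85.4 CPM in P0 cKO. Libraries 2 and 6 of control were the lowest, and the groups overlapped (log2 fold change 0.26, SE 0.11, 95% interval 0.02 to 0.51, limma adjusted p = 0.253), with a value of 0.07 without these libraries. At P7 the means were 46.7 ± 2.14 in control and 48.9 ± 1.67 CPM in cKO (log2 fold change 0.06, 95% interval -0.07 to 0.20, adjusted p = 0.726). Of the other formins, 12 were tested at P0 and 11 at P7, with medians of -0.11 and -0.08; 0 passed with limma at either age. At P7 edgeR and DESeq2 each called 1, Fhod3, a formin best known from heart muscle, lower in cKO at a log2 fold change of -0.24 with limma (124 ± 4.34 against 106 ± 9.75 CPM, limma adjusted p = 0.0601; named after its value was seen). At P0 neither called any, and 3 formins at P0 and 2 at P7 had an unadjusted p under 0.05.

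The kinase Cdk5 and its main activator Cdk5r1 showed no genotype difference that passed, while the second activator, Cdk5r2, was lower in cKO at P7. Cdk5r2, a gene of 1 exon on chromosome 1 from 74854934 to 74857732 (plus strand), measured 68.0, 61.6, 70.7 and 78.3 CPM in P7 control and 57.6, 56.8, 56.9 and 54.2 CPM in P7 cKO. The groups did not overlap, and the cKO libraries lay close together. The cKO mean was 80.9% of control (56.4 ± 1.51 against 69.7 ± 6.91 CPM, SD, n = 4), a log2 fold change of -0.30 (SE 0.07, 95% interval -0.45 to -0.15). This is the smallest of the 3 differences that chose a member.

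At P0 the values of Cdk5r2 lay the other way. Control libraries 1, 2, 5 and 6 measured 43.2, 65.3, 73.1 and 78.6 CPM, and cKO libraries 3, 4, 7 and 8 measured 92.4, 75.0, 86.9 and 76.2 CPM. Control library 1 was far below the rest, and the groups overlapped between 75.0 and 78.6 CPM. The log2 fold change was 0.37 (SE 0.16, 95% interval 0.03 to 0.71) and did not pass (limma adjusted p = 0.253); without control library 1 it was 0.19. The change of the genotype difference between the ages was -0.67 on the log2 scale (95% interval -1.06 to -0.28), given without a test.

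Cdk5, on chromosome 5 from 24418241 to 24423530 (minus strand), measured 55.4, 49.9, 64.6 and 63.5 CPM in P0 control and 69.96, 72.4, 70.6 and 60.7 CPM in P0 cKO. The lowest cKO library lay inside the control range, and the difference did not pass (log2 fold change 0.23, SE 0.11, adjusted p = 0.283). At P7 the means were 19.3 ± 1.29 and 19.6 ± 2.27 CPM (log2 fold change 0.02, 95% interval -0.19 to 0.22, adjusted p = 0.962). Cdk5r1, a gene of 1 exon on chromosome 11 from 80477023 to 80481184 (plus strand), was far more abundant, at 748 ± 85.1 CPM in P0 control and 720.0 ± 16.8 CPM in P0 cKO (log2 fold change -0.05, 95% interval -0.23 to 0.13, adjusted p = 0.779). At P7 it was at 260.0 ± 16.5 CPM in control and 284.5 ± 21.2 CPM in cKO (log2 fold change 0.13, 95% interval 0.0014 to 0.26, adjusted p = 0.342). The CPM ratio of Cdk5r1 to Cdk5r2 was 11.9 ± 2.58 in P0 control, 8.80 ± 1.07 in P0 cKO, 3.74 ± 0.147 in P7 control and 5.06 ± 0.509 in P7 cKO; the P7 groups did not overlap, a difference that rests in part on the Cdk5r2 values that chose the gene.

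Neither dynein regulator had a genotype difference that passed at either age. Pafah1b1 (chromosome 11, 74673949 to 74724670, minus strand) measured 516, 633, 622 and 631 CPM in P0 control and 587, 622, 605 and 678 CPM in P0 cKO, with control library 1 apart from the other controls (log2 fold change 0.06, 95% interval -0.12 to 0.24, adjusted p = 0.735). At P7 it measured 1016 ± 22.1 CPM in control and 973 ± 28.7 CPM in cKO (log2 fold change -0.06, 95% interval -0.15 to 0.02, adjusted p = 0.558). Of its 50-base stretches, 0.952% are shared with its pseudogenes. Ndel1 (chromosome 11, 68821434 to 68871858, minus strand) was at 84.7 ± 14.1 and 93.2 ± 7.20 CPM at P0 (log2 fold change 0.15, 95% interval -0.11 to 0.40, adjusted p = 0.508; -0.05 without control libraries 2 and 6) and at 78.3 ± 2.24 and 76.9 ± 2.71 CPM at P7 (log2 fold change -0.02, 95% interval -0.14 to 0.09, adjusted p = 0.895). At P7 the intervals of both genes did not reach the -0.30 measured for Cdk5r2, a value that chose that gene. The interval of Cdk5r2 itself, -0.45 to -0.15, touched that of Pafah1b1, and a contrast between the genes was not tested.

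**Figure D3:**
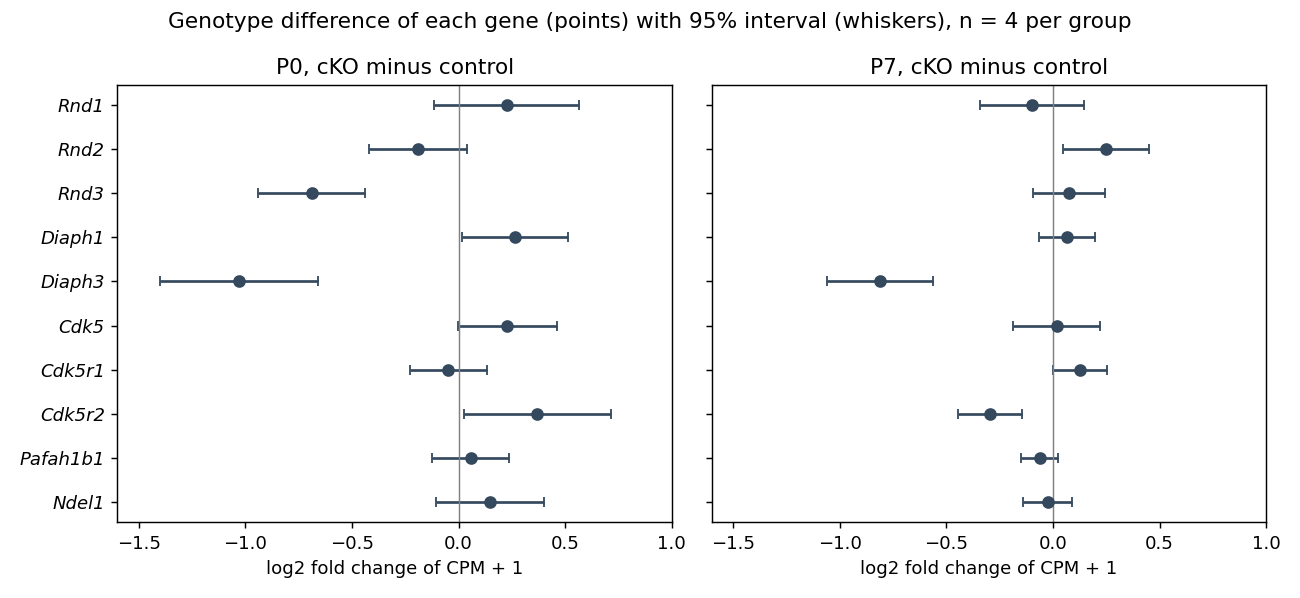
Log2 fold change (cKO minus control, on the log2(CPM + 1) scale) of each of the 10 genes at P0 and P7, with 95% intervals, and a line at 0. Diaph3 lies below 0 at both ages (-1.03 and -0.81), Rnd3 at P0 alone among the ages measured (-0.69 and 0.07), and Cdk5r2 lies above 0 at P0 and below it at P7 (0.37 and -0.30).

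Read against the whole table, 0.254% of the 12580 genes tested at P0 passed (32 genes) and 3.72% of the 12828 tested at P7 (477 genes). Of the 10 members, 2 passed at P0 (Rnd3 and Diaph3, both chosen there) and 2 at P7 (Diaph3 and Cdk5r2, the latter chosen there), all lower in cKO, and 4 at each age had an unadjusted p under 0.05, where 18.1% of all genes did at P0 and 14.3% at P7. The counts that include a gene's choosing values are descriptions, and they moved with single libraries: without cKO library 3, 4 or 8 neither gene passed, and without control library 6 or cKO library 7 only 1 did. At P7 the Cdk5r2 call was lost without control library 43, 46 or 47 or cKO library 42 or 48, while the Diaph3 call remained when each library was left out in turn. Groups that do not overlap made up 9.86% of the genes tested at P0 and 8.88% at P7, and 2 of the 10 members at each age. The median log2 fold change of the members was 0.10 at P0 (0.01 over all genes tested) and -0.0035 at P7 (0.03 over all genes). The test of a change in the genotype difference between the ages passed in 0.751% of 13444 genes. Of the members 1 was counted there, Rnd3, whose P0 values chose it, so this count is a description and not a test of the member.

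Genes around the members in the same pathways passed about as often as all genes did. Over 8 lists of 117 genes in all, 109 were tested at each age. At P0 0 of them passed with limma or edgeR and 4 with DESeq2, against 3.41% of all genes with DESeq2, and 20 (18.3%) had an unadjusted p under 0.05. At P7 3 fell and 0 rose with limma, 4 passed with edgeR and 6 with DESeq2, against 3.61% and 4.70% of all genes, and 18 (16.5%) had an unadjusted p under 0.05. The medians of all 109 were 0.01 at P0 and 0.02 at P7.

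By role, of 17 partners of Rnd proteins and steps from RhoA to actin, 0 passed at P0 (median -0.0034; 0 with edgeR or DESeq2; 3 at an unadjusted p under 0.05), and 1 fell at P7. This was Plxnd1, a plexin receptor for semaphorins, from 72.6 ± 8.60 to 48.6 ± 6.43 CPM (SD, n = 4), a log2 fold change of -0.57 (SE 0.10, limma adjusted p = 0.00274). Of the transcription factors known to act on Rnd2 or Rnd3, 6 were tested at P0 and 5 at P7, and 0 passed with limma or edgeR at either age. With DESeq2 3 passed at P0 and 0 at P7, and 3 at P0 and 0 at P7 had an unadjusted p under 0.05. Neurog2, which acts on Rnd2, was at 13.2 ± 4.88 CPM in P0 control and 10.3 ± 1.55 CPM in P0 cKO (log2 fold change -0.29, limma adjusted p = 0.460). Neurog2 was singled out for this role and not by the rule for named genes.

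Around Cdk5, 9 relatives and binding proteins were tested at P0 and 10 at P7, and 0 passed at either age with any of the 3 tools (1 at an unadjusted p under 0.05 at each age). Of 18 Cdk5 substrates, 0 passed at P0 with limma or edgeR while DESeq2 called 1 (4 reached an unadjusted p under 0.05), and 2 fell at P7. Both are neurofilament subunits, structural proteins of the axon. Nefm fell from 157 ± 11.3 to 86.3 ± 14.5 CPM (log2 fold change -0.87, SE 0.10, limma adjusted p = 0.000144) and Nefh from 17.6 ± 2.24 to 10.9 ± 1.04 CPM (log2 fold change -0.64, SE 0.11, limma adjusted p = 0.00291). At P0 the same genes had log2 fold changes of 0.46 and -0.21 that did not pass. Around Pafah1b1 and Ndel1, 25 genes of dynein, dynactin and nuclear movement were tested at P0 and 26 at P7 and 0 passed with any of the 3 tools (4 and 7 at an unadjusted p under 0.05; medians 0.01 and 0.05). Of 8 microtubule genes of lissencephaly, 0 passed with limma or edgeR at either age, 1 passed with DESeq2 at P7 (Dclk1), and 0 at P0 and 1 at P7 had an unadjusted p under 0.05.

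Levels can be compared between genes only per length of exon. Per kilobase of exon, P0 control cortex held Cdk5r1 at 179.6 ± 20.5 CPM per kilobase, Pafah1b1 at 62.4 ± 5.89, Cdk5 at 26.9 ± 3.21, Ndel1 at 26.1 ± 4.33, Rnd2 at 25.7 ± 1.75, Cdk5r2 at 23.2 ± 5.55 and Rnd3 at 22.4 ± 0.153, followed by Diaph1 at 11.4 ± 1.93, Rnd1 at 10.3 ± 2.46 and Diaph3 at 2.29 ± 0.639 (SD, n = 4). The first and second places and the last stood clear of their neighbours, while from Cdk5 to Rnd3 each gene lay within 1 SD of the next, by the larger SD of the pair, as did Diaph1 and Rnd1. In P7 control the order was led by Pafah1b1 at 105.6 ± 2.29, then Cdk5r1 at 62.5 ± 3.96, with Cdk5r2 at 24.9 ± 2.47 next to Ndel1 at 24.1 ± 0.687. Rnd3 at 10.6 ± 0.876, Cdk5 at 8.90 ± 0.596, Rnd2 at 8.23 ± 0.835, Diaph1 at 7.37 ± 0.337 and Rnd1 at 6.69 ± 0.582 followed, and Diaph3 was again last at 2.88 ± 0.396. At P7 the neighbours Cdk5r2 and Ndel1, and Cdk5 and Rnd2, lay within 1 SD of each other, and Rnd2 and Diaph1 were about 1 SD apart. Exon length here is the union over all annotated transcripts, so a gene with long unused exons is understated.

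**Figure D4:**
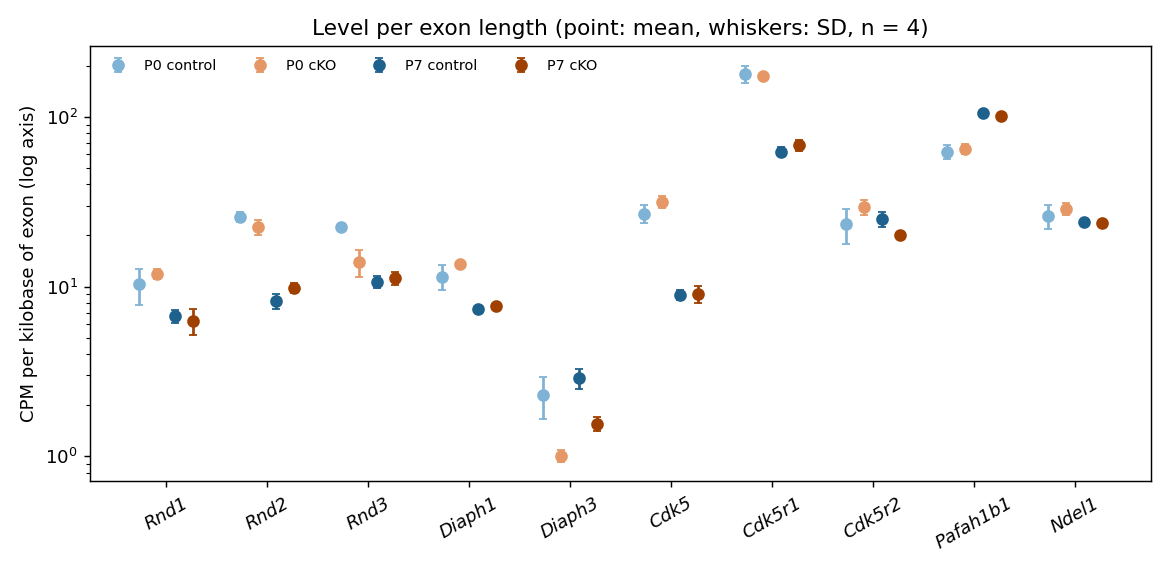
Mean level of the 10 genes in CPM per kilobase of exon on a log axis, by group (error bars, SD, n = 4). Cdk5r1 and Pafah1b1 exchange the first place between P0 and P7 control (179.6 and 62.4 against 62.5 and 105.6 CPM per kilobase), and Diaph3 is lowest in all 4 groups.

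Between the ages most of the members differed, as did most genes. In controls 8 of the 10 passed between P0 and P7 (6 lower and 2 higher at P7) against 82.5% of the 13444 genes tested, a share near the background. The median of the members was -0.59 on the log2 scale, against -0.19 over all genes; scaling by medians of ratios moved the median of all genes to 0.03, and its split from 4723 higher and 6362 lower to 5652 and 5483. The 8 calls include Rnd3 and Diaph3, whose P0 values chose them, so this count is a description. Every value in this comparison also carries the change of platform.

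The largest age differences were in Rnd2 and in the Cdk5 kinase with its main activator. Rnd2 was at 32.0% of its P0 control level at P7 (log2 fold change -1.59, SE 0.10, limma adjusted p = 4.5e-12), with its overlapping neighbour Vat1 at -1.66. Cdk5 was at 33.1% (-1.54, SE 0.10) and Cdk5r1 at 34.8% (-1.52, SE 0.08), with groups that did not overlap. Rnd3 was at 47.6% (-1.06, SE 0.10), given without a test because its P0 values chose the gene. Diaph1 and Rnd1 were at 64.5% and 65.0% (-0.61 and -0.57). The Rnd1 call was lost with quantile normalisation (-0.22, limma adjusted p = 0.154). Pafah1b1 went the other way, to 169% of P0 (0.76, SE 0.07, limma adjusted p = 1.3e-09). Cdk5r2 was at 0.13 (SE 0.13), given without a test because its P7 values chose the gene. Its value was 0.36 with medians of ratios and -0.05 without P0 control library 1. Ndel1 did not pass (-0.10, limma adjusted p = 0.332) and was 0.13 with medians of ratios. It passed as lower in 3 of 19 alternatives, among them without P0 control library 6 (-0.19), with values down to -0.29.

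Diaph3 was higher at P7 in controls by 0.33 on the log2 scale (SE 0.15), although 23 of the 24 dividing-cell markers were lower at P7, with a median of -1.19. The Diaph3 value is given without a test because its P0 values chose the gene. Its call within the count for controls was lost in 9 of 19 alternatives, and without P0 control libraries 2 and 6 the value was 0.16. It was larger with medians of ratios (0.55), quantile normalisation (0.65), edgeR (0.54) and DESeq2 (0.57), and without P0 control library 1 (0.49). In cKO mice 10 of the 10 members passed between the ages (8 lower and 2 higher), against 81.7% of all genes. This count holds Rnd3, Diaph3 and Cdk5r2, whose choosing values include cKO libraries, and is a description. The values were -0.89 for Rnd1, -1.15 for Rnd2, -0.29 for Rnd3, -0.81 for Diaph1, 0.55 for Diaph3, -1.75 for Cdk5, -1.34 for Cdk5r1, -0.54 for Cdk5r2, 0.64 for Pafah1b1 and -0.27 for Ndel1. Rnd3 stood at 61.8 CPM in P0 cKO, between the 99.1 CPM of P0 control and the 47.2 and 49.8 CPM of the P7 groups.

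**Figure D5:**
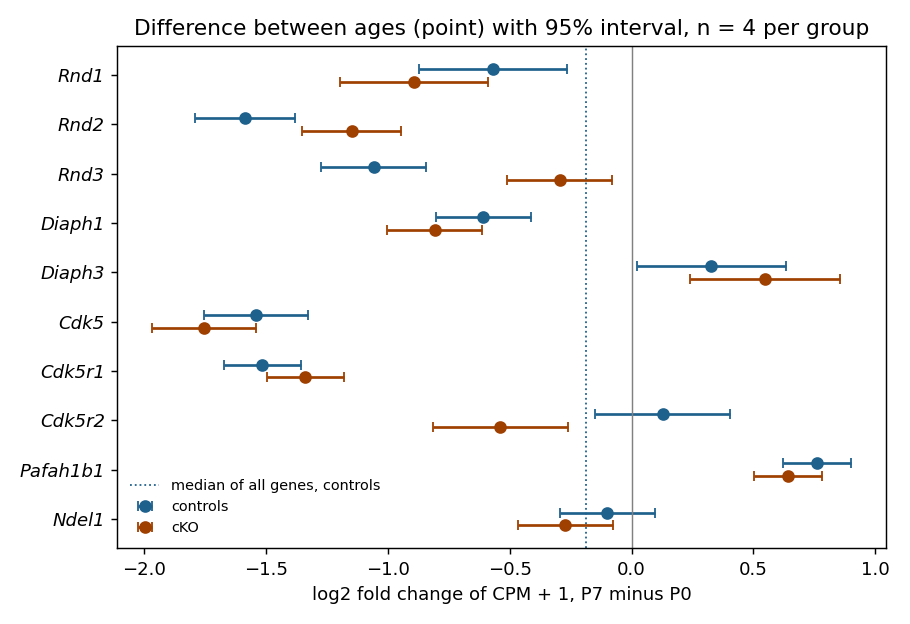
Log2 difference of P7 minus P0 for each of the 10 genes in controls and in cKO, with 95% intervals, on the log2(CPM + 1) scale, with a solid line at 0 and a dotted line at -0.19, the median of all genes in controls. Pafah1b1 and Diaph3 lie above 0 in both genotypes, and Rnd3 is at -1.06 in controls and -0.29 in cKO.

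Some genes varied with the members across libraries of the same age. After each age's mean was subtracted, and over 16 libraries that include the genotype difference itself, Pearson's r was computed between 4 members and 9562 genes as a description. Rnd3 was most like Magi3 (r = 0.908, Spearman's coefficient 0.826, r = 0.841 without the 2 farthest libraries), Gabpb1 (0.871, 0.879 and 0.845) and Robo1 (0.857, 0.809 and 0.77). Diaph3 was most like Masp1 (0.939, 0.874 and 0.906), Zfp385b (0.924, 0.832 and 0.89) and Cttnbp2 (0.882, 0.894 and 0.833). Cdk5r2 was most like Gpd2 (0.895, 0.771 and 0.673), Dclk1 (0.891, 0.865 and 0.811) and Prkcb (0.883, 0.747 and 0.744), and Rnd2 like Usp54 (0.847, 0.709 and 0.628), Unk (0.814, 0.809 and 0.778) and Tmem109 (0.811, 0.797 and 0.716). Between these 4 and the other members, r ran from -0.59 (Rnd3 with Diaph1) to 0.621 (Cdk5r2 with Pafah1b1, Spearman's coefficient 0.25), with 0.576 for Rnd3 with Diaph3 and 0.562 for Rnd3 with Rnd2. The libraries share genotype, depth and preparation, so these values say nothing of shared control.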

How the data were processed

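Bulk polyadenylated RNA of right cortex was measured in 16 libraries, 4 per group, grouped by the age and genotype in the labels. The authors deposited 1 table of CPM, without genes of the sex chromosomes; the submitters' processing notes name STAR, HTSeq, edgeR and the build mm10 (GRCm38), with no versions. The table held 95.9% to 96.6% of each library's total, and 100% of values were whole multiples of 1 read within 0.01 read, so reads were recovered for count tests.

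A gene was tested where 4 or more libraries of the fit held at least 1 CPM, on log2(CPM + 1) with limma 3.58.1 (R 4.3.3, eBayes with a trend), Benjamini-Hochberg adjusted over all genes tested, threshold 0.05. Each genotype comparison used the 8 libraries of its age; age and the change of the genotype difference came from 1 fit over 16. Single values were compared by exact two-sided permutation over 70 assignments. Alternatives were 2 pseudocounts, filters, scalings, robust fits, array weights, edgeR 4.0.16 and DESeq2 1.42.0 on recovered reads, 1 fit over 16 libraries, and leaving libraries out. The tests were tested on simulated data. Gene positions are from GENCODE M21.

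Members, lists and tests were chosen with earlier results of these data known. Named were all members and Foxp1, up to 3 called genes per pathway list and genotype comparison by smallest p, and the 3 genes most like each of 4 members (at least 5 CPM on average at each age); other names are marked. Some genes of the lists are counted but not reported by name here.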

Additional observations from a re-analysis of the deposited data

Results flagged for a closer look

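Within each of the 4 groups, the highest and lowest library of each of the 10 genes was screened for a gap wide against the group's range (Dixon's test at the 95% level). Of 40 groups screened 2 passed, where chance gives about 1 in 20. Pafah1b1 stood at 515.7 CPM in P0 control library 1, with a gap of 0.908 of the range, and Ndel1 at 72.88 CPM in P7 cKO library 44, with a gap of 0.87. The genotype difference of Rnd3 changed by 0.764 on the log2 scale between P0 and P7; as its P0 values chose the gene, this is a description.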

How the results depend on the processing

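With no filter on low values, members passing were 0 at P0 (Rnd3 -0.69, Diaph3 -1.03) and 1 at P7 (Diaph3, while Cdk5r2 at -0.30 did not pass). In 1 fit over 16 libraries 1 passed at P7, again Diaph3 and not Cdk5r2 (-0.30). Leaving out each library gave 0 to 2 at P0, 1 to 2 at P7 and 1 to 2 for the change of the genotype difference, with Rnd3 at -0.80 to -0.60 and Diaph3 at -1.11 to -0.86 at P0, and Cdk5r2 at -0.35 to -0.24 at P7. That change counted 2 members with array weights, without P0 control library 5 or 6, and without P0 control libraries 2 and 6 together (the second was Cdk5r2); the cause was not tested. These counts hold genes chosen by the same values and are descriptions. No member's called value reversed. Diaph3 at P7 passed in all 19 alternatives (-0.916 to -0.757, adjusted p from 1.9e-08 to 0.00588).

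Over all genes, calls at P0 went from 32 to 7 with no filter, 124 with array weights, 429 with DESeq2, 794 in 1 fit over 16 libraries, 118 without P0 control libraries 2 and 6, and 4 to 136 leaving out 1 library. At P7 they went from 477 to 660 with array weights, 603 with DESeq2, 175 in 1 fit, and 281 (without control library 46) to 496 leaving out 1 library. For the change they went from 101 to 54 with no filter, 194 with array weights, 291 with DESeq2, 175 without libraries 2 and 6, and 45 to 361 leaving out 1. No paired analysis was made because the labels do not state litters or any pairing of libraries. Depth limits Diaph3 most, at 78 to 329 reads.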
